A study of Mus musculus with 5 samples.

Results

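The genes described here are 8 cytochrome P450 enzymes and 2 nuclear receptors that switch on such enzymes in response to foreign and bile-derived compounds. They were taken by symbol from the deposited gene table, which holds 27998 genes, 100 of them P450 genes by symbol. The enzymes are Cyp2b10, Cyp2c55, Cyp2c65, Cyp2d26, Cyp3a11, Cyp3a13, Cyp3a25 and Cyp4f40, and the receptors are Nr1i2 and Nr1i3. All 10 had counts in enterocyte-like cells and all 10 passed the filter on low counts there. They were chosen because several are higher after bowel resection in these data, so every value of that contrast is given as a description without a test.

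C57BL/6 mice 8 to 12 weeks old underwent either sham surgery (3 libraries) or small bowel resection (2 libraries), and droplet single-cell RNA sequencing was done on the epithelium of the ileum, the last stretch of the small intestine. Resection removes a length of the small intestine. The time after surgery, and whether a library is 1 mouse or a pool, are not given in the sources used here, so spread between libraries may be in part technical. Fewer cells of a state and less RNA per cell cannot be told apart in the sums over cells used below.

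Cytochrome P450 enzymes of the CYP2 and CYP3 families oxidise drugs, steroids, bile acids and fatty acids, and many CYP4 enzymes act on fatty acid tails. In the small intestine they sit in the absorptive enterocytes of the villus and make the first pass of metabolism on what is absorbed. Nr1i2 encodes the pregnane X receptor (PXR) and Nr1i3 the constitutive androstane receptor (CAR). Both pair with the retinoid X receptor, and Cyp3a11 and Cyp2b10 are their classic target genes in mouse liver.

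The libraries held 1402 to 4014 cells (sham) and 3887 and 7233 cells (resection), with a median of 4541 to 6239.5 unique molecular identifiers (UMIs, 1 per captured RNA molecule) per cell. Clusters named from markers gave 419, 1561 and 1146 enterocyte-like cells for the sham libraries (numbered 1 to 3 here and below), and 1970 and 3104 for resection libraries 1 and 2. All 10 enterocyte markers were detected in these cells in every library. Libraries stood apart: without scaling of genes within a library, the composition of all cells by cluster overlapped by 31.7% between sham 1 and resection 1, by 40.5% to 45.7% among the other 3, and by at most 4.71% between these sets. The first pair is called set A and the other 3 set B, and each holds both groups. Even with scaling, 742 of the 789 cells of 1 enterocyte-like cluster (cluster 7) were from resection 1. Cluster 1, led by the lipid transport genes Apoa4 and Apoc3 and by the lactase gene Lct, held 33.5% and 45.4% of the enterocyte-like cells of resection 1 and 2, against 11.5%, 23.4% and 8.64% in sham 1, 2 and 3. Libraries shared between 0.386% and 1.498% of the barcodes of the smaller library.

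On the mouse genome (GRCm38, GENCODE vM21), the Cyp3a genes lie on the minus strand of chromosome 5. Cyp3a11 spans 145854426 to 145879964 and Cyp3a25 spans 145977194 to 146009618, with no coding gene among the 97229 bases between them, while Cyp3a13 lies apart at 137892932 to 137921619. Cyp2c55 (39007019 to 39042693) and Cyp2c65 (39061015 to 39093944) are next to each other on the plus strand of chromosome 19. Cyp2b10 is on chromosome 7 (25897620 to 25926624, plus strand), Cyp2d26 on chromosome 15 (82790101 to 82794294, minus strand) and Cyp4f40 on chromosome 17 (32658900 to 32676914, plus strand). Nr1i2 is on chromosome 16 (38248323 to 38294824, minus strand) and Nr1i3 on chromosome 1 (171213970 to 171220701, plus strand), where it overlaps Tomm40l on the other strand.

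Reads of this chemistry come from the 3′ end of the RNA, where related P450 genes can share sequence. Of the 451 words of 50 bases in the last 500 bases of the longest coding transcript, Cyp2d26 shared 25.7% with other genes, all of them Cyp2d genes or pseudogenes. Cyp2b10 shared 7.54% with Cyp2b13, Cyp2c65 shared 3.33% with Cyp2c66 and Gm49585, and Cyp3a25 shared 3.10% with Cyp3a59. Cyp4f40 shared 0.887% and Cyp3a11 0.443%, and the other 4 genes shared none. The counts of Cyp2d26 are thus the least certain to belong to 1 gene.

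The sequences just before the start sites of 4 of the enzymes are shown because all 4 genes were higher after resection and because 3 of them hold letters that nuclear receptors are known to read. They are taken from RefSeq (GRCm38.p6), which matched all 10 symbols, and are written 5′ to 3′ up to the base before the first annotated exon. Cyp3a11 is chr5:145879965-145880104 (minus strand), Cyp3a25 chr5:146009619-146009868 (minus strand), Cyp2c65 chr19:39060756-39061005 (plus strand) and Cyp2b10 chr7:25897408-25897619 (plus strand). Capitals mark the half-sites AGGTCA and AGTTCA of nuclear receptors, the word CAAAGTCCA read by HNF4 proteins, and TATAAA, on either strand.
Cyp3a11: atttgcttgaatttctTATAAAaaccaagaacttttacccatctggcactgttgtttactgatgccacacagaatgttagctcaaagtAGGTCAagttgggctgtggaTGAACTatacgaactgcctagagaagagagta
Cyp3a25: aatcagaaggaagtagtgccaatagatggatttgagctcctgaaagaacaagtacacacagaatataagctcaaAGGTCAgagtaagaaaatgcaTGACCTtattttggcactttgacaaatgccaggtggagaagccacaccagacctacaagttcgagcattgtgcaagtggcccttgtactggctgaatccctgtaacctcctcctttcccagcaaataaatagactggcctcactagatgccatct
Cyp2c65: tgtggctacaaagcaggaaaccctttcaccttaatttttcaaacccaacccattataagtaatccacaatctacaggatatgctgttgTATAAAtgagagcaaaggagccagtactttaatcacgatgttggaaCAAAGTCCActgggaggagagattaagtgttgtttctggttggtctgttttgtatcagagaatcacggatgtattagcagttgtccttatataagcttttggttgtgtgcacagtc
Cyp2b10: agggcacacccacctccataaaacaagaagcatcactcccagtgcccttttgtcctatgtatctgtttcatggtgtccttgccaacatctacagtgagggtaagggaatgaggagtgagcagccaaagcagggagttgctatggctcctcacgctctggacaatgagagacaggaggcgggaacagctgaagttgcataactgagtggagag
In the 250 bases before the RefSeq start, AGGTCA was found for 2 of the 10 genes (Cyp3a11 and Cyp3a25) and in 14.02% of all 32851 promoters in the table. AGTTCA was found for 1 of 10 (Cyp3a11), against 11.8% of all, and CAAAGTCCA for 2 of 10 (Cyp2c65 and Cyp3a11), against 0.384%. The Cyp3a11 copy of CAAAGTCCA begins 109 bases before the RefSeq start, inside an exon of a longer annotated transcript, and is not shown. None of the 10 held 2 half-sites as a direct repeat spaced by 3 or 4 bases or as an everted repeat spaced by 6 bases, which at most 0.0244% of all promoters held. Cyp2b10 held none of these words. These are matches of letters in a short window, and binding was not measured.

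The first comparison set the resection libraries against the sham libraries within enterocyte-like cells, in CPM (UMIs of a gene per 1000000 UMIs of the summed cells, scaled by edgeR's TMM factors). Of the 10 genes, 8 were higher in both resection libraries than in every sham library, and 1, Cyp4f40, was lower in both. Over all 9784 genes tested, 11.4% lay above the sham range in this way and 9.78% below it. By edgeR's adjusted p below 0.05, 0.0% of all genes (0 genes) were called in this contrast, with 668 genes at an unadjusted p below 0.05, and DESeq2 called 118 genes. The median log2 change was 1.41 over the 10 genes and -0.01 over all genes. The genes were selected on this contrast, so their count is not read against that background.

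Cyp3a11, the main inducible CYP3A enzyme of mouse liver, stood at 7.39, 4.88 and 1.24 CPM in the 3 sham libraries, and at 46.7 and 104.7 CPM in resection 1 and 2. It was low in all 3 sham libraries and high in both resection libraries, and higher in resection 2. The means were 4.5 ± 3.09 (SD, n = 3) and 75.7 ± 41.0 CPM (SD, n = 2), a log2 change of 4.20 with a standard error of 0.63. The log2 ratio was 2.66 between the libraries of set A and 5.10 in set B, and the change was 3.50 without resection 2.

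Cyp2b10, the classic CAR target, gave 3.69, 4.07 and 2.75 CPM across the sham libraries and 66.1 and 25.6 CPM across the resection libraries. Here resection 1 was the higher library, the reverse of Cyp3a11. The means were 3.50 ± 0.68 (SD, n = 3) and 45.8 ± 28.6 CPM (SD, n = 2), with a log2 change of 3.72 and a standard error of 0.45. Its log2 ratio was 4.16 in set A and 2.91 in set B, and the change was 2.88 without resection 1.

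**Figure D1:**
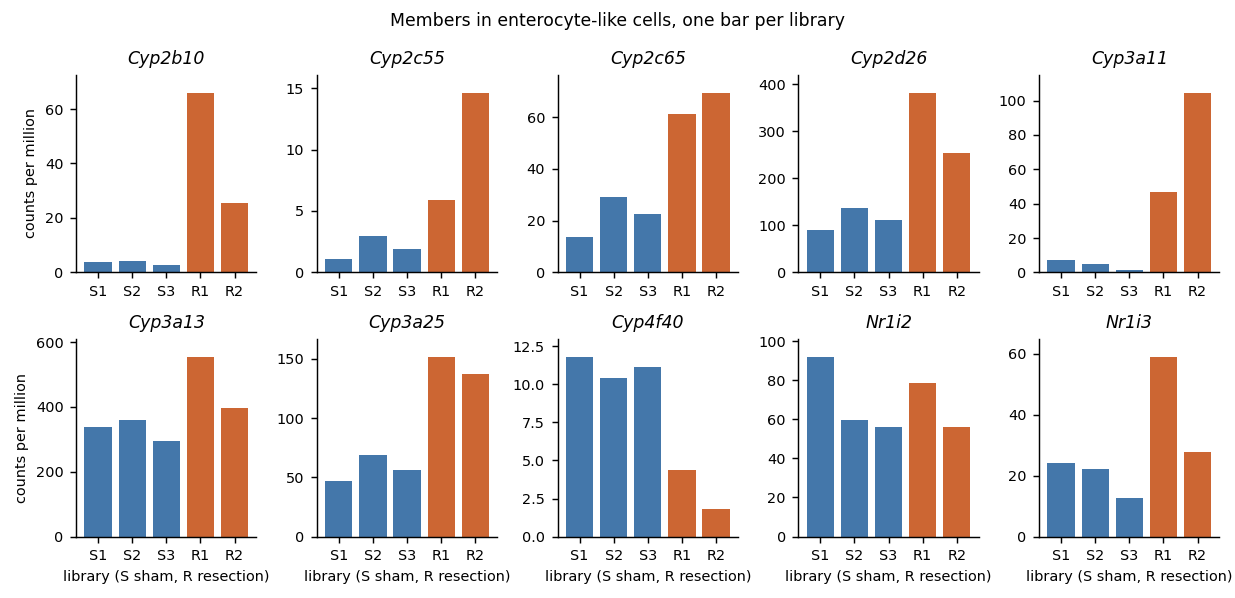
CPM (TMM-scaled) of each of the 10 genes in enterocyte-like cells, 1 bar per library, with S for sham and R for resection and a separate scale per gene. Cyp3a11 is highest in resection 2 (104.7) and Cyp2b10 in resection 1 (66.1), Cyp4f40 lies below its sham values, and Nr1i2 overlaps between groups.

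Both neighbouring Cyp2c genes were higher after resection. Cyp2c55, an enzyme that hydroxylates arachidonic acid, stood at 1.11, 2.93 and 1.92 CPM after sham surgery, compared with 5.87 and 14.6 CPM in the resection libraries, a log2 change of 2.28 (SE 0.50). Cyp2c65, an intestinal member of the same family, measured 13.7, 29.1 and 22.6 CPM in sham 1, 2 and 3, against 61.3 and 69.6 CPM in resection 1 and 2, a log2 change of 1.56 (SE 0.32). Neither gene's groups overlapped. For Cyp2c55 the change was 2.79 without resection 1 and 1.47 without resection 2, and for Cyp2c65 it was 1.66 and 1.47.

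Cyp2d26 and Cyp3a25 were also above the sham range. Cyp2d26, of the CYP2D family, gave 90.5, 136 and 112 CPM across the sham libraries and 382 and 255 CPM across the resection libraries (log2 change 1.49, SE 0.32). Its log2 ratio was 2.08 in set A and 1.04 in set B. Cyp3a25 stood at 46.9, 69.2 and 56.0 CPM after sham surgery, compared with 152 and 137 CPM in the resection libraries (log2 change 1.33, SE 0.27). For both genes the lowest resection library lay above the highest sham library by a wide margin.

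Cyp3a13, the member of the CYP3A family best known from mouse intestine, measured 339, 360 and 295 CPM in sham 1, 2 and 3, against 555 and 397 CPM in resection 1 and 2. Its groups did not overlap, but resection 2 was close to sham 2, and the log2 change of 0.52 (SE 0.30) was the smallest among the enzymes that were higher. Without resection 1 it was 0.27. The summed level of the 8 enzymes was 514, 617 and 503 CPM in the sham libraries and 1274 and 1006 CPM in the resection libraries.

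Cyp4f40, of the CYP4F family, was the one enzyme with lower values after resection. It gave 11.8, 10.4 and 11.1 CPM across the sham libraries and 4.38 and 1.82 CPM across the resection libraries, a log2 change of -1.84 (SE 0.41), which was -2.59 without resection 1 and -1.34 without resection 2. The sham values lay close together, and both resection values were well below them.

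The 2 receptors differed from each other. Nr1i2 (PXR) stood at 92.0, 59.4 and 56.0 CPM after sham surgery, compared with 78.6 and 56.1 CPM in the resection libraries, and the groups overlapped, with a log2 change of -0.03 (SE 0.32). Its values in set A (sham 1 and resection 1) were above those in set B in both groups. Nr1i3 (CAR) measured 24.0, 22.1 and 12.8 CPM in sham 1, 2 and 3, against 59.0 and 27.9 CPM in resection 1 and 2, a log2 change of 1.16 (SE 0.40). Most of that lay in resection 1: the change was 1.60 without resection 2 and 0.52 without resection 1. Nr1i3 was higher in resection 1 than in resection 2, as were Nr1i2, Cyp2b10, Cyp2d26, Cyp3a13, Cyp3a25 and Cyp4f40.

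The levels of general enterocyte genes moved with the same contrast. The 10 enterocyte markers together had 32190 to 63429 CPM in the enterocyte-like cells of the sham libraries and 73114 and 120139 CPM after resection, and the 10 immature enterocyte markers had 57064 to 105177 CPM and 66313 and 52428 CPM. The part of this shift in the changes above was not tested. The same counts were also made within single clusters. Within cluster 2, led by Ccl20, Saa1 and the ileal bile acid binding gene Fabp6 (112 to 958 cells per library), 7 of the 10 genes were above the sham range and none below it, where 8.99% of the 9784 genes were above and 7.62% below. Within cluster 4 (160 to 646 cells) 6 of 10 were above it and Cyp4f40 below it, where 9.11% of these genes were above and 8.17% below. As in the whole class, the choice of genes used this contrast and nothing is read from these counts. In CPM of the summed UMIs in cluster 2, Cyp3a11 was at 3.45, 0.487 and 0.383 in the sham libraries against 20.4 and 34.4 in the resection libraries, and Cyp2b10 at 6.90, 2.92 and 0.765 against 29.4 and 7.93. In cluster 1, Cyp3a11 was at 53.1, 17.9 and 5.94 in the sham libraries against 83.0 and 169.8 in the resection libraries. Cyp2b10 was there at 4.08, 10.1 and 7.92 against 145.1 and 40.9. These sham values rest on few molecules. In sham 1, 2 and 3, cluster 2 held 2, 1 and 1 UMIs of Cyp3a11 and 4, 6 and 2 of Cyp2b10. Cluster 1 held 13, 23 and 3 UMIs of Cyp3a11 and 1, 13 and 4 of Cyp2b10, in 48, 366 and 99 cells. Of 6 hepatocyte markers, 4 or 5 were at 0 in the enterocyte-like cells of every library, and the list summed to 1.93 to 3.84 CPM.

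The share of cells with a UMI was compared next. Cells differ in depth, so each was thinned to 2000 UMIs, and the shallowest cell of any library had 2354. The share of enterocyte-like cells with Cyp3a11 was then 1.43% (exact 95% Clopper-Pearson interval 0.53 to 3.09), 0.577% (0.26 to 1.09) and 0.262% (0.054 to 0.763) in sham, and 8.68% (7.47 to 10.0) and 13.9% (12.7 to 15.2) after resection. Without thinning the shares were 2.86%, 1.60% and 0.785%, against 18.7% and 24.2%. Cyp2b10 was found in 0.477%, 0.833% and 0.611% of thinned sham cells and in 12.2% and 4.74% of thinned resection cells, and in 2.15%, 1.47%, 1.48%, 24.98% and 8.54% without thinning. Thus most enterocyte-like cells had no UMI of either gene in any library. These intervals cover counting error only.

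Cyp3a13 was found in 53.5%, 46.9% and 38.7% of thinned sham cells and in 67.6% and 48.2% of thinned resection cells. Resection 2 lay below sham 1 here, so by cells its groups overlapped. Those of Nr1i3 overlapped too, at 5.49%, 3.72% and 2.27% of thinned sham cells and 12.3% and 4.8% of thinned resection cells. Cyp2c55 had no UMI in the 419 thinned cells of sham 1, which allows a share of up to 0.716% (3 cells of 419), and reached 1.17% and 2.96% after resection. Cyp4f40 was found in 3.58%, 1.99% and 1.92% of thinned sham cells and in 0.964% and 0.354% of thinned resection cells.

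**Figure D2:**
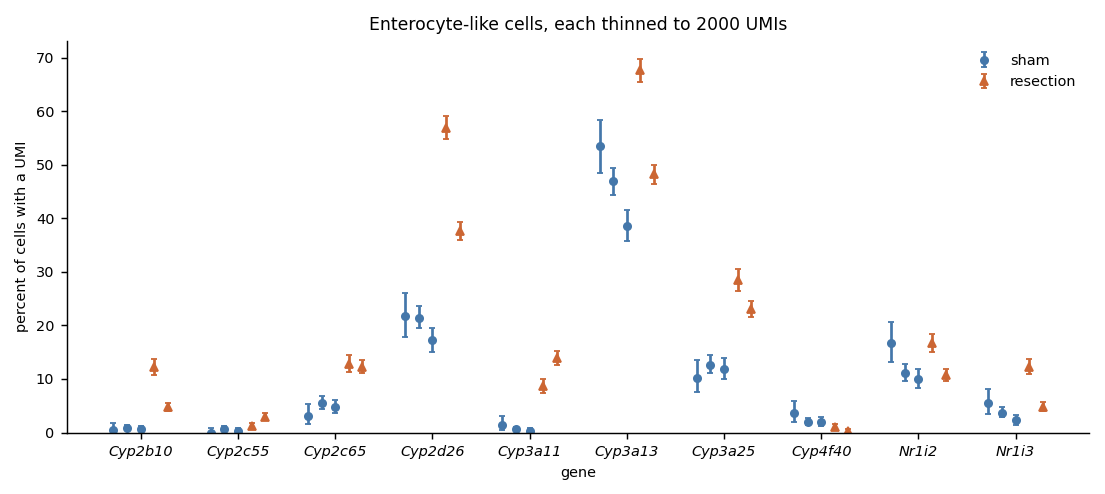
Percent of enterocyte-like cells with at least 1 UMI of each gene after thinning every cell to 2000 UMIs, 1 point per library with its exact 95% binomial interval. Circles are sham and triangles are resection libraries, and Cyp3a11 is at most 1.43% in sham against 8.68% and 13.9% in resection libraries.

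Cells with several of the enzymes were more frequent after resection. Most single-gene shares were higher too, and the genes were chosen on that contrast. The counts of several genes per cell thus do not by themselves show joint expression, and no share expected from the single genes was computed. At least 2 of the 8 P450 genes had a UMI in 23.9%, 19.99% and 16.3% of thinned sham cells and in 62.5% and 43.2% of thinned resection cells. At least 3 were found in 2.39%, 3.52% and 3.05% of sham cells and in 26.5% and 15.0% of resection cells. In resection 1, Cyp3a11 was found in 12.5% of the cells with Cyp2b10 and in 8.15% of those without it. In resection 2 these shares were 27.2% and 13.2%. Cells of 1 library are not replicates, so no test is given.

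The second comparison asked where along the epithelial lineage the genes are expressed. The choice of genes did not use immature cells, but it did use the resection enterocytes, so the same contrast is also given for the sham libraries alone. Enterocyte-like cells were set against immature enterocyte-like cells of the same library, with the library as a block. Of the 10 genes, 9 were called higher in enterocyte-like cells by edgeR at an adjusted p below 0.05, against 33.3% of the 10699 genes tested. Another 32.7% of all genes were called lower (66.0% in either direction), and these include genes that shaped the clusters, which the 10 genes did not. The steepest were Cyp3a11 (36.8 against 2.67 CPM as means of 5 libraries, log2 difference 3.77, SE 0.13, edgeR adjusted p = 3.22e-09) and Cyp2b10 (22.9 against 1.65 CPM, 3.74, SE 0.16, edgeR adjusted p = 5.79e-09). Both were higher in 5 of 5 libraries. In the sham libraries alone, 9 of the 10 genes were again called higher, against 27.7% of 10204 genes (27.4% lower), with log2 differences of 3.32 for Cyp3a11 (SE 0.44, edgeR adjusted p = 1.12e-05) and 3.17 for Cyp2b10 (SE 0.44, edgeR adjusted p = 1.75e-05).

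Cyp3a25 (log2 difference 2.72), Cyp2c55 (2.50) and Cyp2d26 (2.22) followed, with edgeR adjusted p of 2.6e-08, 1.97e-06 and 3.51e-07. Cyp3a13 was less steep, at 1.18 (SE 0.10, edgeR adjusted p = 7.86e-07), as was Cyp2c65 at 0.91 (SE 0.15, edgeR adjusted p = 0.00015). Of the receptors, Nr1i3 was 1.26 higher (SE 0.12, edgeR adjusted p = 3.06e-06) and Nr1i2 0.69 higher (SE 0.08, edgeR adjusted p = 1.4e-05). Each of these genes was higher in 5 of 5 libraries. In the sham libraries alone the log2 difference was 2.60 for Cyp3a25, 2.89 for Cyp2c55, 1.84 for Cyp2d26, 1.05 for Cyp3a13, 0.62 for Cyp2c65, 0.94 for Nr1i3 and 0.71 for Nr1i2, with edgeR adjusted p of 9.03e-09, 0.000294, 2.57e-09, 8.83e-08, 0.00689, 6.14e-05 and 2.87e-05. Cyp4f40 was not called: it had 8.62 CPM in enterocyte-like and 10.1 CPM in immature cells, a log2 difference of -0.36 (SE 0.19, edgeR adjusted p = 0.111), and -0.07 in the sham libraries alone (edgeR adjusted p = 0.75).

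Most of the genes were low in stem-like, cycling-like and Paneth-like cells. In CPM of the summed UMIs of a class, Cyp3a13 had 272 to 392 in enterocyte-like cells of sham libraries, 155 to 224 in immature enterocyte-like cells, 15.4 to 63.9 in cycling-like cells and 9.64 to 68.3 in stem-like cells. Its level in enterocyte-like cells was above that of every immature class sum, while stem-like and cycling-like cells overlapped. Nr1i2 was spread more evenly. As a percent of its level in enterocyte-like cells of the same library, it was at 61.4% to 84.6% in immature enterocyte-like, 37.3% to 64.7% in cycling-like and 46.0% to 62.2% in stem-like cells. Fabp2, an enterocyte gene used as a gauge of free RNA, was at 12.3% to 18.8%, 5.89% to 16.2% and 6.36% to 17.3% in those classes. Nr1i2 RNA was thus found in crypt classes above the level of that gauge.

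Goblet-like and T cell-like cells also held the enterocyte gene Fabp2, at 42.5% to 60.1% and 44.2% to 53.7% of its enterocyte-like level. In the resection libraries, Cyp3a11 was at 73.7% and 62.7% in goblet-like and 69.0% and 59.7% in T cell-like cells. Cyp2b10 was at 76.8% and 65.7% in goblet-like and 59.6% and 68.9% in T cell-like cells. These sums rest on few molecules (28 and 21 UMIs of Cyp2b10 in goblet-like cells and 11 and 20 in T cell-like cells), and T cells should lack these enzymes. The share of T cell-like cells with a UMI of Cyp3a11 was 15.2% and 20.5% in the resection libraries at median depths of 6805 and 4658 UMIs, and 9.09% and 6.85% after thinning. In enterocyte-like cells the thinned shares were 8.68% and 13.9% at median depths of 4928 and 3873 UMIs. In goblet-like cells the thinned shares were 8.70% and 8.16%. For resection 1 the interval in T cell-like cells (1.92 to 24.3) spans the enterocyte-like value, and for resection 2 it lies below it (3.88 to 11.0). The part of free RNA in these values was not tested.

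**Figure D3:**
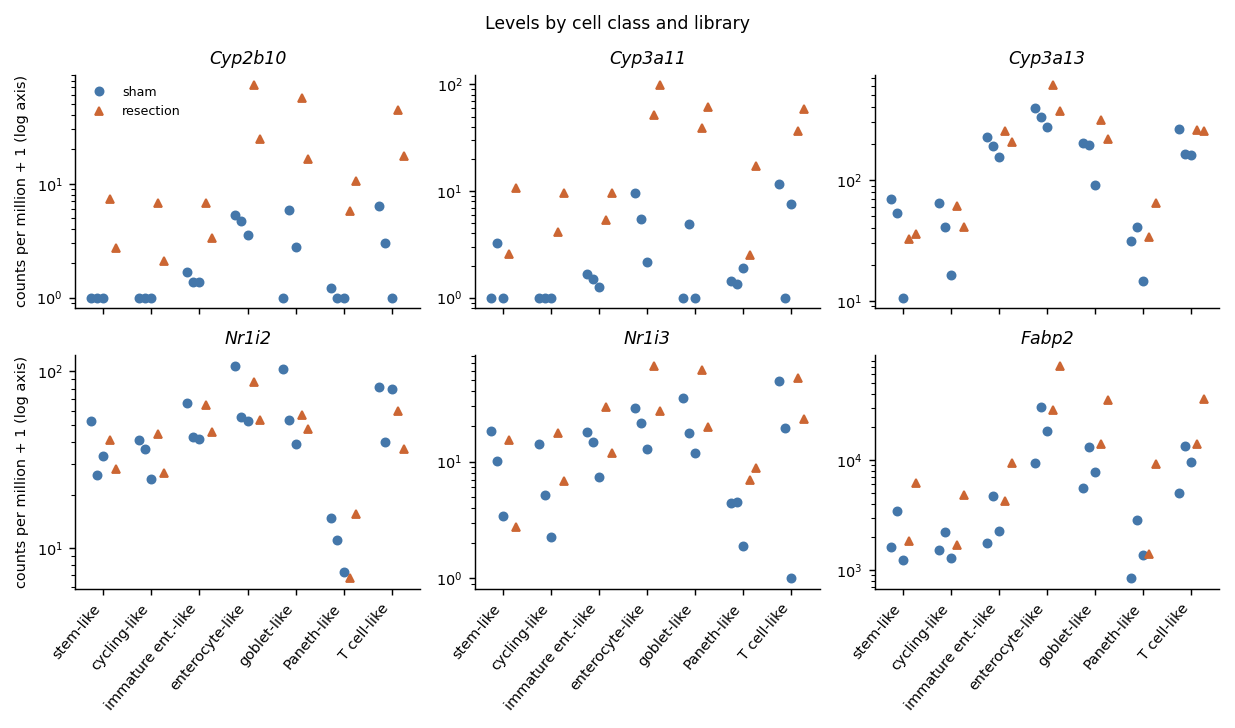
CPM plus 1 (log axis) of 5 of the genes and of the enterocyte gene Fabp2 in 7 cell classes, 1 point per library with at least 20 cells, circles for sham and triangles for resection. Cyp3a13 peaks in enterocyte-like cells, and so do Cyp2b10 and Cyp3a11 in the resection libraries. Sham sums of Cyp2b10 and Cyp3a11 rest on few molecules, and not all of them peak there. Nr1i2 falls less than Fabp2 from enterocyte-like to stem-like cells, and goblet-like and T cell-like sums carry Fabp2 at 42.5% to 60.1% of its enterocyte-like level.

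The change with surgery was also seen in immature enterocyte-like cells, as a description. There 7 of 10 genes lay above the sham range and Cyp4f40 below it, against 7.26% of the 10366 genes tested in that class above the range (0.0% called by edgeR). Cyp2b10, Cyp2c55 and Cyp3a11 were at most 0.58 CPM in every sham library there and passed the filter on low counts through the resection libraries, so nothing is read from the count. Cyp3a11 gave 0.58, 0.55 and 0.26 CPM across the sham libraries and 3.83 and 9.47 CPM across the resection libraries, and Cyp2b10 was at 0.58, 0.41 and 0.40 CPM against 5.06 and 2.61 CPM. Both resection values were far below those of enterocyte-like cells of the same library. Cyp2d26 stood at 38.1, 43.4 and 32.8 CPM after sham surgery, compared with 60.6 and 58.0 CPM in the resection libraries, and Cyp4f40 measured 13.9, 16.8 and 11.3 CPM in sham 1, 2 and 3, against 7.76 and 5.59 CPM in resection 1 and 2. Nr1i3 overlapped between groups in this class, at 14.4, 15.6 and 6.89 CPM against 24.9 and 11.9 CPM. Other classes shifted too. Cyp2b10 was at 0.22, 0.00 and 0.00 CPM in Paneth-like cells after sham surgery, against 5.77 and 7.07 CPM. In T cell-like cells Cyp3a11 was at 10.7, 0.00 and 7.19 CPM against 35.9 and 66.4 CPM. In sham 1 and 3 these values, from 30 and 41 cells, lay above those of enterocyte-like cells (7.39 and 1.24 CPM). In sham 2 the T cell-like value lay below (4.88 CPM in enterocyte-like cells). Cyp2b10 was higher in T cell-like than in enterocyte-like cells in sham 1 only (5.33 against 3.69 CPM). Each class was scaled on its own. Groups overlapped for Cyp2c55, Cyp4f40 and Nr1i2 in Paneth-like cells, and for Cyp4f40, Nr1i2 and Nr1i3 in T cell-like cells. The part of free RNA in these values was not tested.

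In cycling-like and stem-like cells, Cyp2b10 had no UMI in any sham library and few after resection: 13 and 3 UMIs in cycling-like and 4 and 2 UMIs in stem-like cells of resection 1 and 2. Cyp3a11 had 7 and 24 UMIs in cycling-like cells of the resection libraries. As a percent of the enterocyte-like level these Cyp2b10 sums were 8.06% and 4.55% in cycling-like cells, beside 5.89% and 6.75% for Fabp2 in the same cells.

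The third comparison asked how the genes lie along the villus, a position that the choice of genes did not use. The choice did use the resection enterocytes, so the sham libraries alone are also given further below. Enterocytes are born in the crypt and move to the villus tip, and known tip genes (such as Ada and Nt5e) and base genes (such as Reg3b and Lypd8) place a cell on that path. Enterocyte-like cells of each library were ranked by their tip genes minus their base genes and split into 3 equal ranges, and the highest range (tip cells) was set against the lowest (base cells). These are ranges of a score, not cell types. Of the 10 genes, 8 were called higher in tip cells and 1 lower by edgeR at an adjusted p below 0.05, against 12.5% and 12.2% of the 8420 genes tested (24.7% in either direction). Genes of the score were left out of that test.

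Cyp3a11 had the steepest rise, from 1.25, 2.53 and 0.94 CPM in base cells to 21.1, 11.0 and 2.05 CPM in tip cells of sham 1, 2 and 3. In resection 1 and 2 it went from 17.2 and 33.9 CPM to 89.7 and 212 CPM. The tip level was higher in 5 of 5 libraries, with a log2 difference of 2.52 (SE 0.15, edgeR adjusted p = 1.35e-09). The sham values rest on few UMIs, from 139, 520 and 382 cells per range in sham 1, 2 and 3. The base cells of resection 2 held more Cyp3a11 than the tip cells of any sham library.

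Cyp2b10 went from 3.75, 2.53 and 0.47 CPM in base cells to 7.44, 7.35 and 6.16 CPM in tip cells of the sham libraries, and from 40.2 and 9.58 to 89.4 and 47.4 CPM after resection. The log2 difference was 1.61 (SE 0.20, edgeR adjusted p = 9.12e-06), with 5 of 5 libraries higher. Its sham values rest on few UMIs as well. Base cells of both resection libraries were above tip cells of every sham library.

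The other rises were smaller. Cyp2d26 was 0.85 higher in tip cells (SE 0.08, edgeR adjusted p = 5.47e-07), Cyp3a25 0.73 (SE 0.12, edgeR adjusted p = 0.000129), Cyp2c65 0.58 (SE 0.11, edgeR adjusted p = 0.000556) and Cyp3a13 0.46 (SE 0.09, edgeR adjusted p = 0.00118). Each was higher in 5 of 5 libraries. Cyp2c55 (0.996, SE 0.30, edgeR adjusted p = 0.0203, 4 of 5 libraries) and Nr1i3 (0.40, SE 0.12, edgeR adjusted p = 0.0225, 5 of 5) were closer to the threshold. Without sham 2 these missed it, at edgeR adjusted p of 0.055 and 0.086, and without resection 2 Cyp2c55 did, at 0.43 (log2 difference 0.56). Among all alternatives the call was lost in 6 for Cyp2c55, 5 for Nr1i3, 2 for Cyp2c65 (edgeR adjusted p up to 0.072) and 1 for Cyp3a13 (0.085).

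Cyp4f40 was lower in tip cells by a log2 difference of -0.72 (SE 0.26, edgeR adjusted p = 0.0474), in 4 of 5 libraries. It missed the threshold without sham 2 (edgeR adjusted p = 0.24), without sham 3 (0.13) and without resection 1 (0.13), and in 7 alternatives in all, with edgeR adjusted p up to 0.27. Nr1i2 was higher in 5 of 5 libraries by 0.24 on the log2 scale (SE 0.10) but was not called (edgeR adjusted p = 0.0697). In sham libraries alone 5 genes were called, all higher, against 8.42% of 7984 genes (7.34% lower). Cyp2c55 did not pass the filter on low counts in the sham libraries alone and was not tested there. Its call over all libraries thus leans on the resection libraries. In resection libraries alone 6 of the 10 genes were called, all higher, against 9.27% of 8716 genes (8.63% lower). The sham libraries gave 2.38 for Cyp3a11 (edgeR adjusted p = 0.00164), 1.86 for Cyp2b10 (0.0165), 1.06 for Cyp3a25 (7.37e-06), 0.84 for Cyp2d26 (6.75e-06) and 0.68 for Nr1i3 (0.0466). The log2 tip difference of Cyp3a13 was 0.24 in sham and 0.75 in resection libraries, and the difference between groups in these gradients was not tested.

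**Figure D4:**
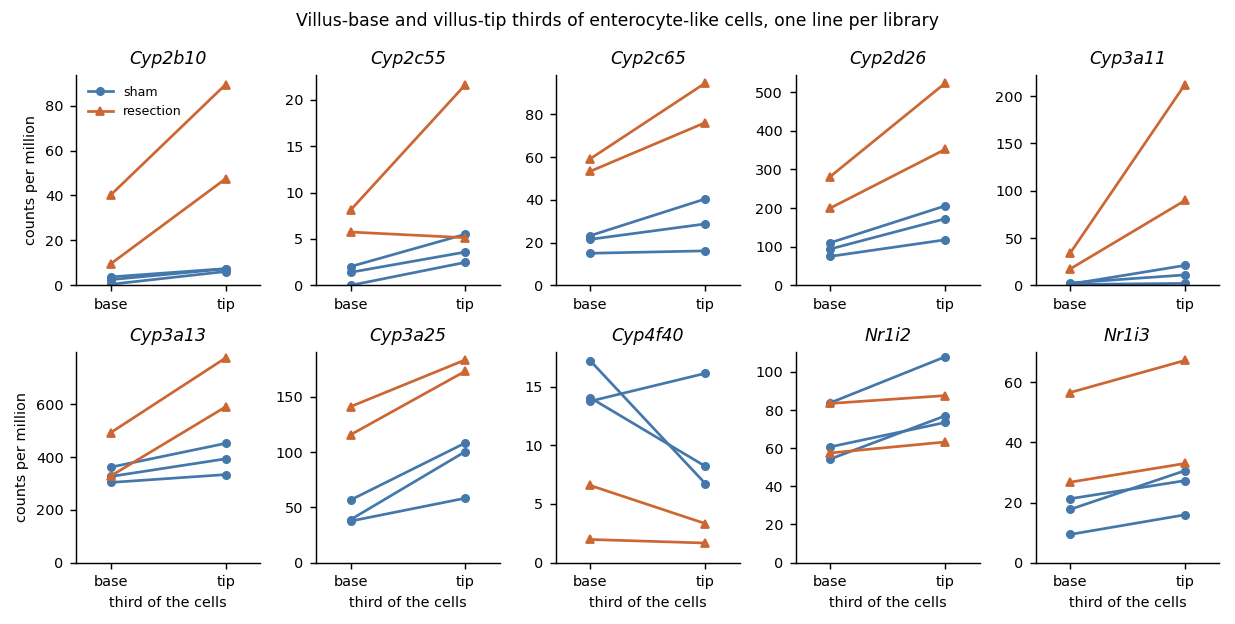
CPM of each gene in base cells and tip cells of the enterocyte-like class, 1 line per library, circles for sham and triangles for resection. Cyp3a11 and Cyp2b10 rise to the tip in all 5 libraries and Cyp4f40 falls in 4 of 5.

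Within tip cells 7 of the 10 genes were above the sham range and Cyp4f40 below it, where 11.7% of all genes were above and 10.1% below. Within base cells the counts were again 7 and 1, where 10.1% of all genes were above and 7.85% below. This contrast chose the genes, and nothing is read from the counts. The genes above differed by 2: Cyp3a13 was above the range in tip cells and not in base cells, and Cyp2c55 in base cells and not in tip cells.

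The other P450 genes, which were not chosen, give a setting for these values. Of 92 of them, 40 had any count in enterocyte-like cells and 16 passed the filter on low counts. None was called with surgery by edgeR (adjusted p below 0.05). An unadjusted p below 0.05 was found for 6 of 16, and for 668 of all 9784 genes tested. Of the 16, 13 were higher after resection and 3 lower, with a median log2 change of 0.61 against -0.01 over all genes. Above the sham range lay 7 of them and below it 1, against 11.4% and 9.78% of all genes tested. Among the 11 with a mean of at least 5 CPM, the largest changes were those of Cyp4b1 (34.4, 63.5 and 51.2 CPM in sham, 162 and 88.6 after resection, log2 change 1.33, edgeR adjusted p = 0.43), Cyp2d22 (12.2, 15.1 and 7.96 CPM, then 29.2 and 26.9, 1.26, edgeR adjusted p = 0.35) and Cyp4v3, an enzyme of fatty acid hydroxylation (233, 358 and 185 CPM, then 655 and 549, 1.22, edgeR adjusted p = 0.48). The lowest were Cyp2s1 (-0.30), Cyp4f13 (0.11) and Cyp2c68 (0.16), whose groups overlapped. Cyp2d22 shares 50-base words with Cyp2d26, as does Cyp4f13 with Cyp4f40, and reads in those words cannot be told apart.

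Cyp2c66 was picked once its values had been seen. It gave 0.37, 0.00 and 0.14 CPM across the sham libraries and 3.50 and 3.01 CPM across the resection libraries. It lies under the 5 CPM minimum and shares 50-base words with Cyp2c65; reads of the 2 genes in those words cannot be told apart. Of the other P450 genes, 11 of 17 tested were called higher in enterocyte-like than in immature cells and 2 lower, against 33.3% and 32.7% of all genes. In tip cells 7 of 11 tested were called higher and 1 lower, against 12.5% and 12.2% of all genes.

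**Figure D5:**
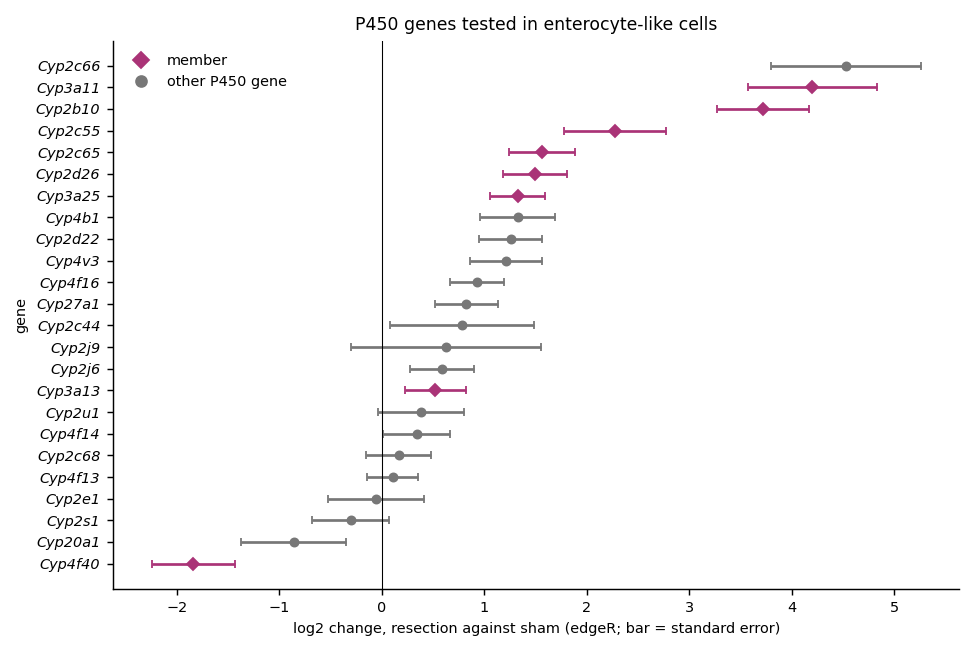
Log2 change after resection with its standard error (edgeR) for the 24 P450 genes tested in enterocyte-like cells, diamonds for the 8 enzymes described here and circles for the other 16. Cyp3a11 (4.20) and Cyp2b10 (3.72) lie far to the right with the low Cyp2c66 (4.53), and Cyp4f40 (-1.84) lies lowest.

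P450 enzymes need electrons from a reductase and a heme group. Of 15 genes of P450 electron transfer and heme synthesis, 14 were tested and none was called with surgery by edgeR (1 at an unadjusted p below 0.05). Their median log2 change was 0.00, with 7 higher and 7 lower. Alad, an enzyme of heme synthesis, stood at 38.4, 55.7 and 50.4 CPM after sham surgery, compared with 72.7 and 83.3 CPM in the resection libraries (log2 change 0.69, SE 0.26, edgeR adjusted p = 0.67). Por, the reductase itself and also a PXR or CAR target, is named outside the rule, with its values known: it was 0.70 higher in tip than in base cells (edgeR adjusted p = 5.15e-05).

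Of 18 receptor partners and related receptors, all were tested, none was called with surgery by edgeR (2 at an unadjusted p below 0.05), and the median log2 change was 0.02. Nr0b2, the small heterodimer partner that is switched on by the bile acid receptor, gave 0.74, 0.16 and 0.00 CPM across the sham libraries and 2.80 and 2.06 CPM across the resection libraries (log2 change 3.54, SE 0.86, edgeR adjusted p = 0.35). These are a few molecules per library. Ppargc1a, a coactivator of nuclear receptors, stood at 38.0, 41.0 and 24.8 CPM after sham surgery, compared with 83.5 and 55.2 CPM in the resection libraries (1.01, SE 0.31, edgeR adjusted p = 0.51). These and Ncor1 were the 3 of the 18 genes above the sham range, against 11.4% of all genes tested. Another 4 were below it (Nr1h4, Ppara, Hsp90ab1 and Hsp90aa1), against 9.78% of all genes. The last 5 are named outside the rule, with their values known.

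Of 16 non-P450 genes known as targets of PXR or CAR, 14 were tested and none was called with surgery by edgeR (1 at an unadjusted p below 0.05), with 9 higher, 5 lower and a median log2 change of 0.16. Of the 14, 1 lay above the sham range and 1 below it, against 11.4% and 9.78% of all genes tested. Gstm2, a glutathione transferase, measured 2.22, 1.63 and 3.71 CPM in sham 1, 2 and 3, against 0.35 and 1.03 CPM in resection 1 and 2 (-1.86, SE 0.62, edgeR adjusted p = 0.58). Gsta1, of the same enzyme class, gave 52.1, 69.5 and 238 CPM across the sham libraries and 28.8 and 63.2 CPM across the resection libraries (-1.39, SE 0.69, edgeR adjusted p = 0.81), with sham 3 apart from the other 4 libraries. By lineage, 10 of the 14 were called higher in enterocyte-like than in immature cells and 3 lower, against 33.3% and 32.7% of all genes.

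The aryl hydrocarbon receptor governs another set of P450 genes. Of 8 genes of that receptor and its targets, 4 were tested and none was called with surgery by edgeR (1 at an unadjusted p below 0.05), with a median log2 change of -0.17. Nqo1, a quinone reductase, stood at 12.2, 14.2 and 12.9 CPM after sham surgery, compared with 5.26 and 7.36 CPM in the resection libraries (-1.05, SE 0.28, edgeR adjusted p = 0.41), and both resection values were below the sham range. Tiparp measured 20.7, 26.4 and 21.0 CPM in sham 1, 2 and 3, against 42.0 and 26.0 CPM in resection 1 and 2 (0.58, SE 0.28, edgeR adjusted p = 0.81). The genes of these lists were assembled with earlier results of these data known.

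Across the 35 sums of library and class with at least 20 cells, the genes most like each of 4 of these genes were found by the correlation of log2(CPM + 10) among 4788 genes. The sums share libraries and depth and include the resection enterocytes on which the genes were chosen, so these values are a description. Most like Cyp2b10 were Slc2a2, the glucose transporter GLUT2 (r = 0.91), Lct (0.90), Ephx2, the soluble epoxide hydrolase (0.90), and Leap2 (0.86). Cyp3a11 was most like Slc2a2 (0.88), Apoc3 (0.86), Ephx2 (0.84) and Lct (0.83), so 3 genes stood in both lists. Cyp3a13 was most like Clec2h (0.98), the anion exchanger gene Slc26a6 (0.98), the P450 gene Cyp4f14 (0.98) and Ceacam20 (0.98). Nr1i2 was most like Tprn (0.96), Ist1 (0.96), Gnb1 (0.95) and Pkp3 (0.95), which share none with the lists of the enzymes. Among the 10 genes themselves r was 0.84 between Cyp2b10 and Cyp3a11, 0.91 between Cyp2c55 and Cyp3a11, and 0.96 between Cyp2d26 and Cyp3a25, while Cyp4f40 was at -0.22 to 0.07 with these enzymes except Cyp3a13 (0.35).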

How the data were processed

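Droplet libraries of 3 sham and 2 resection samples were deposited by the authors as raw UMI counts per gene and cell, not normalized. Per the labels' protocols, the chemistry was 10x Chromium 3′ v2 and Cell Ranger built the matrices, in a version that the labels leave in doubt. The submitters' processing notes name the builds mm10 and GRCm38. Total depth was 11749028 to 41281731 UMIs per library. Replicate numbers come from the labels.

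Cells under 500 genes or over 20% mitochondrial counts were dropped, and the cells with the highest doublet scores (2 artificial doublets per cell) were removed, 0.8% for every 1000 cells, leaving 18235 of 19404. Counts were scaled to 10000 per cell, and 2000 variable genes (without the described genes, other P450 genes, the lists and mitochondrial genes), scaled within each library, were reduced to 30 components and clustered (20 neighbours, leidenalg 0.10.2, resolution 1.0, scanpy 1.11.5). Scaling within libraries was made the main setting after unscaled clusters were seen to separate libraries. Clusters were named by the markers' mean position between clusters, and 1 cluster (2323 cells) was named immature enterocyte-like by a narrow lead.

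Counts were summed per library and class (at least 20 cells) and compared by the two-sided quasi-likelihood test of edgeR 4.0.16, with TMM scaling, filterByExpr and Benjamini-Hochberg adjustment over all genes (threshold 0.05), in R 4.3.3, or DESeq2 1.42.0 as an alternative. Alternatives also left out each library, kept low counts or doublets, used a 10% mitochondrial limit, resolution 0.5, sham or resection libraries alone, and a term for the set or replicate number. The fits were tested on simulated data.

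The genes, the lists and the tests were chosen with earlier results of these data known. Named beside them, by rule, are the 3 P450 genes of largest and lowest change with at least 5 CPM, from each list the 2 with the lowest p, and the 4 most similar genes with at least 20 CPM. A gene that this rule names is not reported here.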

Additional observations from a re-analysis of the deposited data

How the results depend on the processing

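The number of genes called with surgery in enterocyte-like cells depended on the processing: it was 0 with edgeR as described, 118 with DESeq2, 245 without the filter on low counts, 33 with the set of libraries as a term and 9 with at most 10% mitochondrial counts, and 0 to 2 without each library in turn. A fit with the replicate block gave 232 (the numbers 1 and 2 pair 2 sham with the 2 resection libraries, and nothing says that they mark a shared animal or day). Deviations from the group means correlated at 0.56 for the libraries numbered 1 and 0.21 for those numbered 2. They correlated at 0.47 for sham 3 and resection 2, which differ in number. With 2 resection libraries the deviations of 1 mirror those of the other, so these values cannot decide on a pairing. The pair numbered 1 is also set A. Of the list genes, 0 were called as described, 2 without the filter on low counts (Nr0b2 and Gsta1) and 1 with the replicate block (Gstm1). The cause was not tested.

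The count of described genes above the sham range was 6 to 8 in every alternative, including cluster 2 alone and cluster 4 alone, which were added after seeing the data. Over all genes tested, 11.4% lay above it as described, 8.99% in cluster 2 and 9.11% in cluster 4. The genes were chosen on this contrast, so nothing is read from the count. The change of Nr1i2, -0.03 as described, ranged from -0.29 to 0.22 without each library in turn (0.22 without sham 1, 0.19 without resection 2) and was positive without the filter on low counts (0.0092), with at most 10% mitochondrial counts (0.30), over all epithelial cells (0.035) and with the cluster of narrow lead counted as enterocyte-like (0.043). The other 9 genes kept their direction in all 15 alternatives each. Against immature cells, the share of all genes called ranged from 7165 of 16614 (no low-count filter) to 7273 of 10603 (narrow-lead cluster counted as enterocyte-like). Of the described genes, 9 or 10 were called in every alternative. Cyp4f40 was called lower in 5 of them (log2 difference down to -0.90 and edgeR adjusted p = 0.013 in the resection libraries alone, and -0.54 and 0.027 without sham 3), and turned to 0.13 (edgeR adjusted p = 0.54) with the cluster of narrow lead counted as enterocyte-like. With at most 10% mitochondrial counts sham 1 had too few immature cells and dropped out. In tip against base cells, 5 of the described genes were called in sham libraries alone, and 6 to 10 in the others. The share of all genes called there ranged from 2172 of 14634 (no low-count filter) to 3350 of 9188 (narrow-lead cluster counted as enterocyte-like). Depth limited the sham values of Cyp2b10, Cyp2c55 and Cyp3a11 to few UMIs per library.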
